A study of Rattus norvegicus with 12 samples.

Results

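The genes described here encode the DNA replication machinery: the proteins that license origins, unwind the double helix, copy and join the strands, supply deoxynucleotides and reassemble chromatin. The list named 47 genes, and each was taken from the array feature that carries its symbol alone, the brightest where several do. Of the 47, 45 were measured, out of 18166 genes with such a feature, and all 45 lay above the limit for low signals that left 13636 genes for testing. Rrm1, the large subunit of ribonucleotide reductase, and Tk1, a thymidine kinase, were not analysed here because no feature carried their symbol alone. The cells were skin-derived precursors (SKPs), dermal precursor cells that grow as floating spheres, from newborn Sprague-Dawley rats. Dissociated cells were kept for 24 h with 100 nM trimebutine maleate and 100 nM trametinib together, with 100 nM trimebutine maleate, with 100 nM alprostadil, or with vehicle, and each of the 4 groups had 3 arrays. Trametinib inhibits MEK, the kinase that switches on ERK, trimebutine is a gut motility drug, and alprostadil is prostaglandin E1. No group received trametinib without trimebutine, and the basal medium named in the labels held the growth factors FGF2 and EGF, whose receptors signal through MEK and ERK. Values are log2 expression. A difference is one group's mean log2 value minus another's, SE is its standard error in the limma model, and a gene is said to have risen or fallen where its limma p-value, adjusted over all 13636 genes, was under 0.05. Each such p-value reflects how far cultures of the 3 independent isolates varied within groups, with the spread pooled over the 4 groups. Where the replicate number is fitted as a block, differences shared by arrays of the same number are taken out first.

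A cell can copy its genome only at origins that were licensed beforehand. The origin recognition complex (ORC) and the loaders CDC6 and CDT1 place the MCM helicase on DNA, geminin then blocks CDT1 so that no origin is licensed again in the same cycle, and MCM joins CDC45 and the GINS complex to become the working helicase. Polymerase alpha with primase starts each strand, polymerases epsilon and delta extend it on the PCNA clamp, and FEN1 and ligase I join the fragments. Many of these genes are known targets of E2F transcription factors, which the RB family holds back until cyclin-dependent kinases release them, and growth factor signalling through ERK raises cyclin D upstream of that step.

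The arrays were alike in distribution, with medians from 6.409 to 6.505, and within a group the correlation between arrays was 0.985 to 0.991. Arrays of the same replicate number deviated together from their group means in all 18 pairs (r from 0.21 to 0.81), so the number was taken to mark an isolate. Mesenchymal genes of SKPs were high in every array (Vim from 13.40 to 13.65, Fn1 from 13.28 to 13.43), Nes lay from 8.25 to 8.86, and Sox2 varied from 5.75 to 8.11. Among genes of other skin cells, Krt14 stayed at or below 6.48, Cdh1 at or below 6.53, Epcam at or below 3.68 and Cdh5 at or below 6.05. Not all such genes were low. Mitf, on the melanocyte list, had means of 10.845 with trimebutine and trametinib and 10.867 with trimebutine, while Tyr of that list stayed at or below 3.98. The Schwann cell gene S100b had means of 7.70 and 7.12 in these 2 groups. Adipocyte and macrophage transcripts were present, with Adipoq from 8.21 to 10.54 and Ptprc from 5.94 to 8.62.

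With trametinib added to trimebutine, nearly the whole machinery was lower. Of the 45 genes, 42 fell, none rose and 3 (Orc2, Orc4 and Gins2) did not pass, where 16.6% of all genes tested fell and 16.8% rose. The median difference was −0.91, a 1.88-fold lower signal, while the median of all genes was 0.03. In size, 33 genes were at least 1.5-fold lower, 21 at least 2-fold and 6 at least 3-fold. The shares of all genes past these sizes were not counted, and the differences of all genes had a standard deviation of 0.465. The values of the 2 groups did not overlap for 43 of the 45, where 21.8% of all genes were lower without overlap. In 38 of the 45, every array with trametinib lay below all 9 arrays of the other groups, where 17.1% of all genes did so. In bulk RNA a smaller share of replicating cells and less of these transcripts per cell cannot be told apart.

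**Figure D1:**
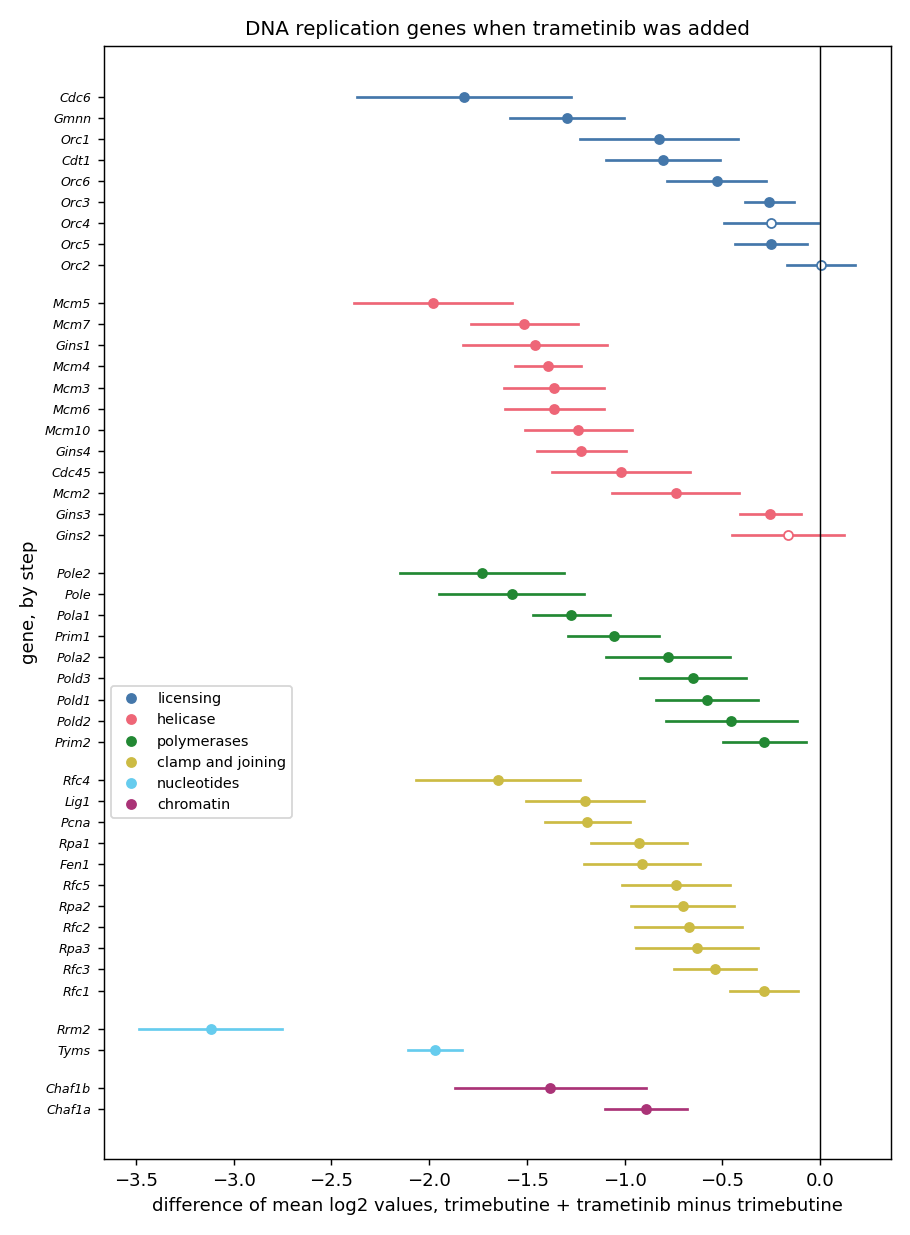
Difference of mean log2 values, trimebutine with trametinib minus trimebutine, for the 45 replication genes (rows, grouped by step); points are the differences, bars the 95% confidence intervals of the limma fit with 3 arrays per group, and open points did not pass. Rrm2 lies farthest to the left at −3.12, and the 3 open points are Orc4, Orc2 and Gins2.

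Among the steps, nucleotide supply had the lowest median (−2.54), from only 2 of its 4 listed genes. Rrm2, the small subunit that makes ribonucleotide reductase active in dividing cells, had 7.74, 7.75 and 7.57 with trimebutine and trametinib, against 10.77, 11.11 and 10.53 with trimebutine, 10.46, 10.82 and 10.49 with alprostadil and 10.70, 11.16 and 10.64 with vehicle. All 3 arrays with trametinib stood apart from the other 9, which overlapped among their groups. The difference from trimebutine was −3.12 (SE 0.17, adjusted p = 1.5e-07), an 8.68-fold lower signal. A dimmer feature of Rrm2 gave −2.30, with its arrays in the combination at 5.87, 5.61 and 5.34, around the low-signal limit of 5.83. Tyms, thymidylate synthase, which makes the thymidine nucleotide, had 8.83, 8.65 and 8.84 with the combination and 10.78, 10.73 and 10.73 with trimebutine. It fell by 1.97 (SE 0.06, adjusted p = 5.47e-09), a 3.92-fold difference, and had the smallest adjusted p of the 45.

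In origin licensing, 7 of 9 genes fell, with a median of −0.53. Cdc6, the loader that works with ORC, had 6.33, 5.83 and 6.01 with the combination, against 7.97, 8.23 and 7.44 with trimebutine, 7.46, 7.81 and 7.12 with alprostadil and 7.98, 8.24 and 7.45 with vehicle. It fell by 1.82 (SE 0.25, adjusted p = 0.000165), a 3.54-fold difference, and was the only one of the 45 with an array at the low-signal limit. Gmnn, which encodes the licensing inhibitor geminin, had 6.56, 6.64 and 6.59 with the combination and 7.77, 8.10 and 7.80 with trimebutine, and fell by 1.29 (SE 0.13, adjusted p = 2.01e-05). Its partner Cdt1 fell by 0.80.

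The 6 ORC subunits did not all follow. Orc1, the subunit known in mammalian cells to come and go with the cycle, fell by 0.82 (SE 0.18, adjusted p = 0.00463), and Orc6 fell by 0.53. Orc3 (−0.26) and Orc5 (−0.25) fell by less, and Orc4 (−0.25, adjusted p = 0.101) did not pass, though it did with the replicate number as a block (adjusted p = 0.0154), a fit that called 43 of the 45 lower and 20.8% of all genes. Orc2 had 8.40, 8.36 and 8.46 with the combination and 8.48, 8.49 and 8.24 with trimebutine, overlapping groups with a difference of 0.00 (95% interval from −0.17 to 0.18). The interval of Orc1 ran from −1.23 to −0.42. Differences between subunits were not tested.

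**Figure D2:**
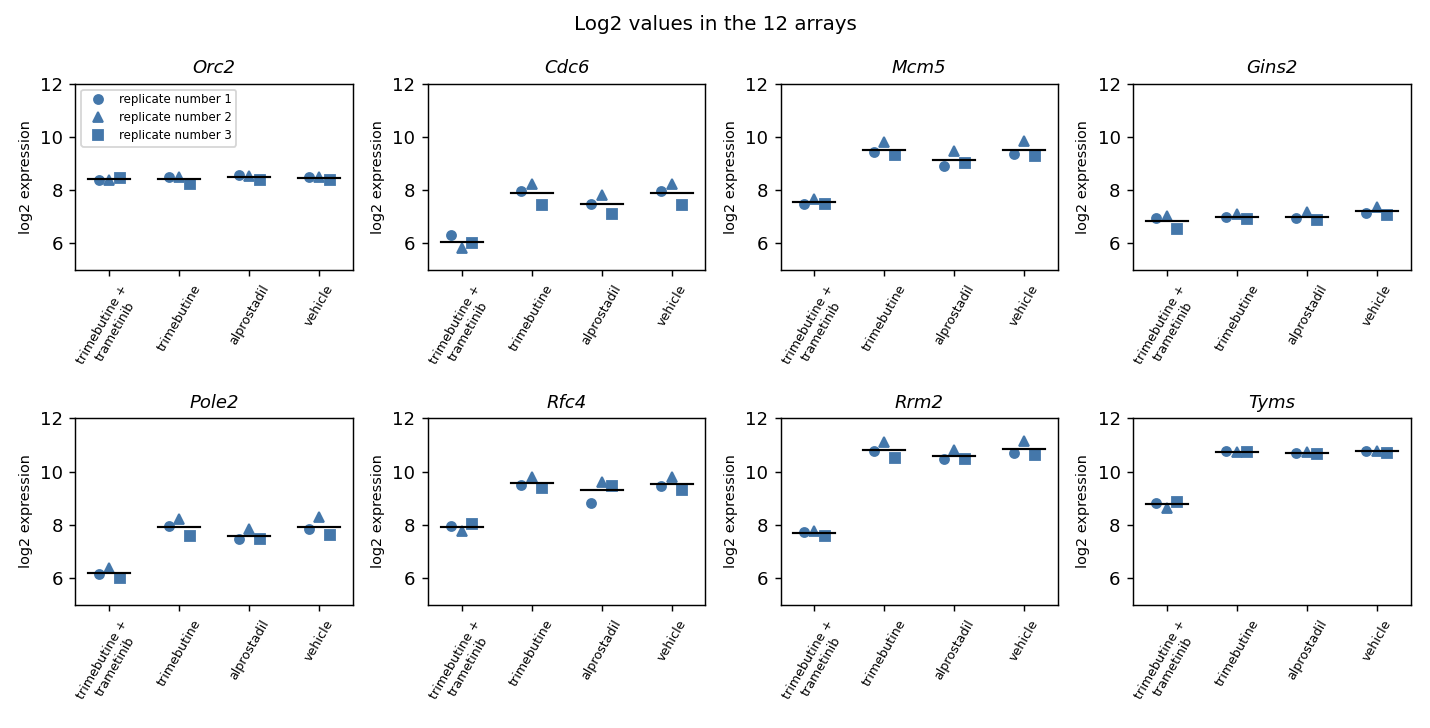
Log2 expression (vertical axis, the same range in every panel) of 8 genes in the 12 arrays; symbols mark the replicate number and lines the mean of each group of 3. Cdc6, Mcm5, Pole2, Rfc4, Rrm2 and Tyms sit lowest in all 3 arrays with trimebutine and trametinib, while Orc2 and Gins2 overlap between that group and trimebutine.

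Of 12 helicase genes, 11 fell, with a median of −1.30. The 6 subunits of the MCM ring all fell: Mcm5 (−1.98), Mcm7 (−1.51), Mcm4 (−1.39), Mcm3 (−1.36), Mcm6 (−1.36) and Mcm2 (−0.74). Mcm5 had 7.5, 7.67 and 7.47 with the combination, against 9.45, 9.82 and 9.30 with trimebutine, 8.90, 9.47 and 9.03 with alprostadil and 9.35, 9.85 and 9.27 with vehicle (adjusted p = 8.84e-06 for the combination against trimebutine). Mcm7 had 7.68, 7.55 and 7.55 with the combination and 9.07, 9.27 and 8.98 with trimebutine (SE 0.13, adjusted p = 3.95e-06). Mcm2 had the smallest difference of the ring, a 1.67-fold lower signal beside 3.95-fold for Mcm5, although its product is part of the same hexamer. Sizes read from features of different genes were not tested against each other, here or in the complexes below. A second feature of Mcm3 gave −1.16 and one of Mcm4 gave −1.49, close to the features used.

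Mcm10 (−1.24), which helps switch on the helicase, and Cdc45 (−1.02) fell as well. The 4 GINS subunits, which form 1 complex, split into a pair with large falls, Gins1 (−1.46) and Gins4 (−1.22), and a pair with small differences, Gins3 (−0.25, adjusted p = 0.0161) and Gins2 (−0.16, adjusted p = 0.382). Gins2 had 6.94, 7.04 and 6.53 with the combination and 7.01, 7.10 and 6.90 with trimebutine, so the groups overlapped. Its 95% interval ran from −0.45 to 0.12, while that of Gins4 ran from −1.45 to −0.995. Against vehicle, with 7.15, 7.36 and 7.08, Gins2 was lower by 0.36 and did not pass (adjusted p = 0.0529), but fell with the replicate block (adjusted p = 0.00225).

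All 9 polymerase genes on the list fell, with a median of −0.78. The largest falls among these 9 were in 2 genes of the leading-strand polymerase epsilon. Its subunit gene Pole2 had 6.15, 6.39 and 6.01 with the combination and 7.96, 8.21 and 7.57 with trimebutine (−1.73, SE 0.19, adjusted p = 3.38e-05). Its catalytic gene Pole had 7.18, 7.09 and 7.03 with the combination and 8.68, 8.99 and 8.37 with trimebutine (−1.58, SE 0.17, adjusted p = 2.64e-05). Outside the list, its small subunit genes changed less: Pole3 fell by 0.41 (adjusted p = 0.0284) and Pole4 did not pass (−0.09, adjusted p = 0.331). The listed genes of polymerase delta fell by less than Pole and Pole2, Pold3 by 0.65, Pold1 by 0.58 and Pold2 by 0.46. Pold4, outside the list, did not pass (0.115, adjusted p = 0.218). In the polymerase alpha and primase complex, Pola1 (−1.27) and the primase catalytic gene Prim1 (−1.06) fell more than Pola2 (−0.78) and the large primase gene Prim2 (−0.29) in measured size. Prim2 had 9.04, 9.23 and 9.38 with the combination and 9.39, 9.61 and 9.51 with trimebutine, groups that did not overlap but nearly touched (−0.29, adjusted p = 0.0427).

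All 11 genes of the clamp, its loader, single-strand binding and strand joining fell, with a median of −0.74. Pcna, the sliding clamp, fell by 1.19 (adjusted p = 4.11e-06), a 2.28-fold difference. Of the 5 genes of replication factor C, which loads that clamp, Rfc4 had 7.95, 7.76 and 8.02 with the combination and 9.49, 9.80 and 9.38 with trimebutine (−1.65, SE 0.19, adjusted p = 4.85e-05). Rfc1, the large subunit, had 9.04, 9.02 and 9.29 with the combination and 9.31, 9.48 and 9.42 with trimebutine (−0.29, SE 0.08, adjusted p = 0.0152), so this complex too held a member with a large fall and one with a small one. Rfc5 (−0.74), Rfc2 (−0.67) and Rfc3 (−0.54) lay between them. Lig1, the ligase that seals Okazaki fragments, had 7.78, 8.0 and 8.15 with the combination and 9.12, 9.42 and 8.99 with trimebutine (−1.20, SE 0.14, adjusted p = 4.5e-05), and the flap endonuclease gene Fen1 fell by 0.91. The 3 genes of the single-strand binding protein RPA fell within a narrow range, Rpa1 by 0.92, Rpa2 by 0.70 and Rpa3 by 0.63.

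Both genes of chromatin assembly factor 1, which places histones on newly copied DNA at PCNA, fell. Chaf1b had 6.82, 6.73 and 6.30 with the combination and 8.0, 8.37 and 7.61 with trimebutine (−1.38, SE 0.22, adjusted p = 0.000561). Chaf1a had 6.34, 6.55 and 6.57 with the combination and 7.42, 7.52 and 7.20 with trimebutine (−0.89, SE 0.095, adjusted p = 2.61e-05).

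The calls held for most members when the processing was changed. Of the 42 genes, 36 fell in each of the 16 alternatives that tested them. Orc1 and Chaf1a, among these 36, and Gins2 were not tested with the limit at the 50th percentile (7.09), which kept 42 of the 45 genes, of which 40 fell. The other 6 had small differences, from −0.29 to −0.25, except Pold2 at −0.46. Prim2 missed the threshold in 9 alternatives, Orc5 in 8, Pold2 in 6, Gins3 and Rfc1 in 5 each, and Orc3 in 1. Leaving out 1 array at a time changed the call of 5 of them. Without combination replicate 1 these were Orc5 (adjusted p = 0.111), Prim2 (adjusted p = 0.160), Pold2 (adjusted p = 0.114) and Rfc1 (adjusted p = 0.0574), and without combination replicate 2 they were Orc5 (adjusted p = 0.106), Prim2 (adjusted p = 0.0907) and Rfc1 (adjusted p = 0.0656). Without combination replicate 3 they were Gins3 (adjusted p = 0.0618) and Pold2 (adjusted p = 0.0887), and without trimebutine replicate 1 they were Orc5 (adjusted p = 0.137) and Pold2 (adjusted p = 0.0831). Without trimebutine replicate 2 all 5 missed (adjusted p from 0.0616 for Rfc1 to 0.151 for Pold2), and without trimebutine replicate 3 only Prim2 did (adjusted p = 0.0886).

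The promoters of the members were searched for the E2F motif, spelled TTTCCCGC, TTTCGCGC, TTTGCCGC or TTTGGCGC, on either strand. Many of these genes are known E2F targets, and the share with the motif does not depend on the array values. RefSeq promoter windows of the GRCr8 assembly, from 250 bases before to 50 bases after the annotated start, were found for 38 of the 45 genes. The motif was in 19 of the 38 windows (50%), beside 2.25% of 27457 windows of all genes and 3.07% of 14564 windows of genes on the array. Without its first T, a looser form that contains the stricter one, it was in 28 of 38 (73.7%), beside 10% of all windows. A CCAAT box, the letters CCAAT that NF-Y binds, searched on both strands as was the next motif, was in 22 of 38 (57.9%), beside 37.7% of all windows. The CHR letters TTTGAA, known from promoters of later cell cycle genes, were in 3 of 38 (7.89%), beside 18.1% of all windows. Member windows were richer in G and C (median 60.2%) than all windows (52.3%), and the part of base composition in these shares was not tested. The motif was in 11 of the 19 windows of genes at or below the median difference and in 8 of the other 19, and a match of letters does not show that a factor binds.

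The following windows show the motif in the member with the largest fall that holds it in 4 of the steps, and the window of Orc2, the member with the smallest difference. Capitals mark the E2F motif in either orientation, and each sequence is written 5′ to 3′ on the strand of its gene. Mcm5 lies at chr19:13488563-13488862 on the plus strand, Gmnn at chr17:40729584-40729883 on the plus strand, Lig1 at chr1:83242920-83243219 on the plus strand, Tyms at chr9:120776034-120776333 on the minus strand and Orc2 at chr9:67526600-67526899 on the minus strand, all in GRCr8.
Mcm5: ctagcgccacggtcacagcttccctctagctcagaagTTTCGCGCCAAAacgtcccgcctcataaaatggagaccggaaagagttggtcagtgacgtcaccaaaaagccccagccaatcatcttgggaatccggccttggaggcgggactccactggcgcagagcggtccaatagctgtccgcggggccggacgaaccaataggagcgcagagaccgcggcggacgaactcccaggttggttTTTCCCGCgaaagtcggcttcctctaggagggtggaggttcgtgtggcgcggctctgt
Gmnn: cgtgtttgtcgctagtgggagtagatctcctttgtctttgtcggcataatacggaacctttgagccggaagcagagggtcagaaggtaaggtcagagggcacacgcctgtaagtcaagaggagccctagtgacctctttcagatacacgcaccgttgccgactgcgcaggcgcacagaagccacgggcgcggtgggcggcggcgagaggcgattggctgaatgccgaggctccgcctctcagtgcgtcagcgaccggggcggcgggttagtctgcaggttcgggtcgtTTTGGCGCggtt
Lig1: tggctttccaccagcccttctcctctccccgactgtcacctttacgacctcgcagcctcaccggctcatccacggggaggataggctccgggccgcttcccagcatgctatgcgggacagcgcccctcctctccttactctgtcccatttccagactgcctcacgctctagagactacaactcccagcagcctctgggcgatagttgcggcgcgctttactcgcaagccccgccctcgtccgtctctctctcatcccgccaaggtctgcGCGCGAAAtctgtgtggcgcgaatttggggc
Tyms: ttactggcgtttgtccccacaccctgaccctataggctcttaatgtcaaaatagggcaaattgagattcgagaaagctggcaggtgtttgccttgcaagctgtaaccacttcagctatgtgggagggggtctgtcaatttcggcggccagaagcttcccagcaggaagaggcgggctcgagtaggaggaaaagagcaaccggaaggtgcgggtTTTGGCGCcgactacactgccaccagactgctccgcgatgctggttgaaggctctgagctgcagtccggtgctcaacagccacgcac
Orc2: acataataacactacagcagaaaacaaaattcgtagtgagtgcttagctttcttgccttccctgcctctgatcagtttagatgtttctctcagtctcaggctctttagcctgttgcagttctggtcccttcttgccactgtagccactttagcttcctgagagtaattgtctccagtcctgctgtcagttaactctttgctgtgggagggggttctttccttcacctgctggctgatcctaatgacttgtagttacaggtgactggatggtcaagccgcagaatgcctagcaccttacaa
In Mcm5 the motif occurs 3 times, starting at bases 38, 42 and 243 of the window of 300, and the first 2 matches overlap. It starts at base 289 in Gmnn, base 270 in Lig1 and base 214 in Tyms. The window of Orc2 held neither form of the motif and no CCAAT box. Orc3 and Orc5, whose differences were −0.26 and −0.25, each held the motif, so small and large falls occurred among windows with it.

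The combination was also set against vehicle, a comparison that shares its arrays with the one above, so its values are given beside it and not as separate evidence. Of the 45 genes, 41 fell and none rose, where 17.5% of all genes tested fell and 17.5% rose, and the median was −0.95. The genes that did not pass were Orc2 (−0.05), Orc4 (−0.29), Gins2 (−0.36) and Prim2 (−0.25). With the replicate block 44 fell, all but Orc2, where 21.1% of all genes did. The 6 genes that were at least 3-fold lower against trimebutine were Rrm2, Mcm5, Tyms, Cdc6, Pole2 and Rfc4, and against vehicle they had −3.15, −1.95, −1.99, −1.83, −1.73 and −1.61. Leaving out single arrays gave from 38 to 41 genes, and the genes whose calls were lost in at least 1 such run were Orc5, Gins3, Pold2 and Rfc1. Without combination replicate 1 the adjusted p was 0.0618 for Orc5, 0.102 for Pold2 and 0.0942 for Rfc1, and without combination replicate 2 it was 0.0602 for Orc5 and 0.108 for Rfc1. Without combination replicate 3 it was 0.0537 for Gins3 and 0.0793 for Pold2, and without vehicle replicate 1 it was 0.0790 for Orc5 and 0.0651 for Rfc1. Without vehicle replicate 2 it was 0.0522 for Orc5, 0.0555 for Gins3, 0.134 for Pold2 and 0.0850 for Rfc1. Some runs added calls: Gins2 passed without combination replicate 2 (adjusted p = 0.0293), Orc4 without combination replicate 3 (adjusted p = 0.0399) and without vehicle replicate 2 (adjusted p = 0.0154), and Prim2 without combination replicate 3 (adjusted p = 0.0242).

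**Figure D3:**
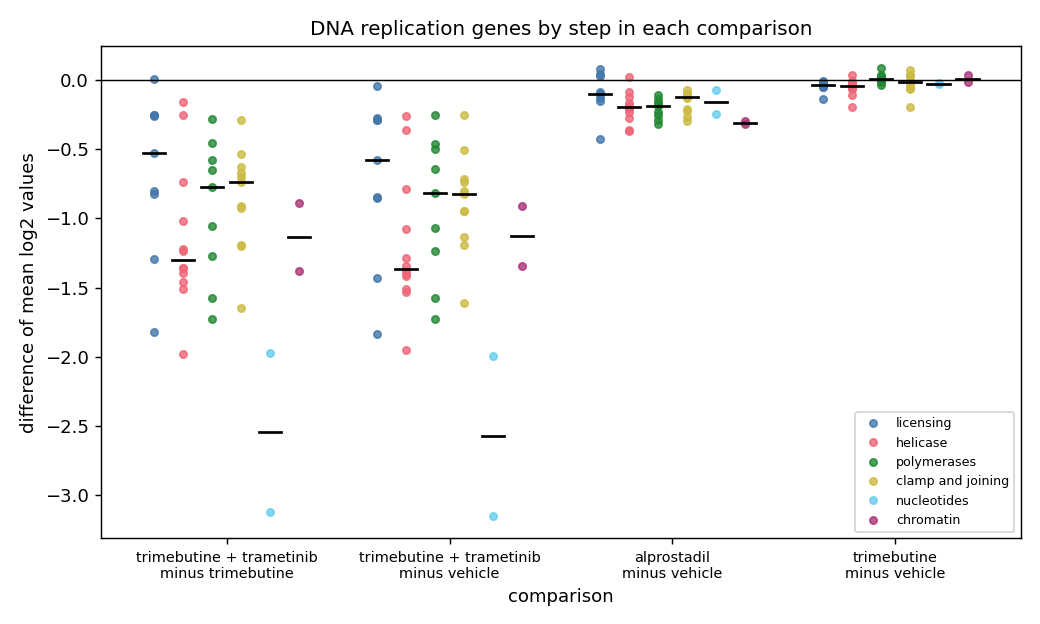
Difference of mean log2 values (vertical axis) of the 45 replication genes in 4 comparisons (horizontal axis); each point is a gene, colours mark the step and black bars the median of a step. Points of both comparisons with trametinib reach −3.12 and −3.15, those of alprostadil minus vehicle lie from −0.43 to 0.08 and those of trimebutine minus vehicle from −0.20 to 0.08.

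Other genes of the pathway were followed when trametinib was added to trimebutine. Of 25 further replication factors, 19 fell and none rose (median −0.60), led by Ticrr (−2.14), which loads CDC45, Asf1b (−2.02), a histone chaperone, Uhrf1 (−1.68), which guides methylation of new DNA, and Atad5 (−1.52), which unloads PCNA. Of 17 E2F and S phase regulators, 13 fell and none rose (median −0.55). These included the cyclin genes Ccna2 (−2.51) and Ccne2 (−1.45) and the repressor-type E2F genes E2f8 (−1.45) and E2f7 (−1.20).

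Nucleotide supply outside the list went both ways: of 9 genes 4 fell, 2 rose and 3 did not pass (median −0.28). Dck (−1.32), a deoxycytidine kinase, Dut (−1.29), which breaks down dUTP, Dctpp1 (−0.74), a nucleotide pyrophosphatase, and Shmt1 (−0.40), a folate enzyme, fell. Ctps1 (0.39), which makes CTP, and Tk2 (0.18), the thymidine kinase of mitochondria, rose. Of 6 housekeeping genes, B2m rose (0.18), Rplp0 fell (−0.28) and 4 did not pass.

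The 5 markers of cycling cells all fell, with Top2a at −3.15 and Mki67 at −2.91, and the log2 of their summed signal lay from 9.48 to 9.71 with the combination and from 12.17 to 12.56 with trimebutine. With the replicate block, used beside the main fit for the lists that follow, 20.8% of all genes fell and 21.2% rose. Among 6 macrophage and leukocyte genes, Cd68 fell (−1.03) and 5 did not pass, while with the replicate block Cd68, Cd14 (−0.68) and Ptprc (−0.47) fell and Csf1r (0.31) rose. The log2 sums of this list lay from 10.56 to 11.28 with the combination and from 11.44 to 11.97 with trimebutine. The 4 adipocyte genes did not pass, but all 4 rose with the replicate block, with sums from 10.57 to 12.07 with the combination and from 10.05 to 11.88 with trimebutine. Of 9 SKP and dermal genes, Pdgfra (−0.79, adjusted p = 6.61e-06) and Twist1 (−0.29, adjusted p = 0.0225) fell, Col1a1 (0.56, adjusted p = 1.34e-05) rose and 6 did not pass, with sums from 15.21 to 15.26 with the combination and from 15.14 to 15.17 with trimebutine. Of 3 melanocyte genes tested, Dct rose (0.31, adjusted p = 0.013). None of 3 Schwann cell genes passed, but S100b (0.58) rose with the replicate block (adjusted p = 1.45e-05). None of 3 keratinocyte genes and not the 1 endothelial gene tested passed, with or without the block. The part of these cells in the fall of the replication genes was not tested.

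Alprostadil was compared with vehicle to see what a prostaglandin drug does to the same genes. None of the 45 passed, by limma with or without the replicate block, where 0.066% of all genes fell and 0.323% rose without the block, and 0.711% fell and 1.17% rose with it. The differences leaned to the lower side, with 41 of 45 below 0 where 54.6% of all genes were, and a median of −0.17 (all genes −0.01), a 1.12-fold lower signal. At an unadjusted p under 0.05 there were 3 genes without the block, Chaf1a, Rpa2 and Fen1, where 3.54% of all genes were that low, and 19 with it, where 7.22% were. In pairs of the same replicate number, 30 genes were lower with alprostadil in all 3 pairs, where 19.8% of all genes were.

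Chaf1a had 7.03, 7.16 and 7.11 with alprostadil and 7.42, 7.49 and 7.27 with vehicle, for a difference of −0.30 (SE 0.095, adjusted p = 0.419). It was 1 of 2 genes, with Prim2, whose groups did not overlap, where 6.19% of all genes were lower without overlap. Cdc6 had the largest difference, −0.43 (95% interval from −0.97 to 0.12). Mcm5 (−0.36) came closest to the threshold with the replicate block, at an adjusted p of 0.0575, and its pairs differed by −0.45, −0.38 and −0.24. Gins1 (−0.37), Fen1 (−0.30), Pold2 (−0.29) and Rpa2 (−0.27) had adjusted p from 0.695 to 0.778. The 4 genes above 0 were Orc4 (0.08), Orc2 (0.04), Orc3 (0.03) and Gins3 (0.02), which also had small differences with trametinib.

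The lean was uneven over arrays. Over the members the median difference was −0.23 in the pair of replicate 1, −0.21 in that of replicate 2 and −0.07 in that of replicate 3. Without vehicle replicate 2 the median was −0.07 with 38 genes below 0, a run that leaves the 2 groups with different isolates. With a replicate number left out of all groups and the block, 39 genes were below 0 without replicate 1, 41 without replicate 2 and 42 without replicate 3. Against trimebutine, a comparison that shares the alprostadil arrays, the median was −0.15 with 39 genes below 0 (55% of all genes) and none passed without the block, where 0.0513% of all genes fell and 0.33% rose. Of the 45, 1 had an unadjusted p under 0.05 on the lower side, where 3.94% of all genes did, and with the block 19 had, where 7.99% did. In pairs of the same replicate number, 27 of the 45 were lower with alprostadil in all 3, where 20.4% of all genes were. With the block Mcm5 was lower (−0.39, adjusted p = 0.0351), where 0.997% of all genes were.

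Trimebutine alone left the replication genes near vehicle. None passed, with or without the block, and none of all 13636 genes did (0%). The differences ran from −0.20 for Rpa3 and Gins2 to 0.08 for Pold1, with a median of −0.02 and 33 of 45 below 0, where 51.1% of all genes were. Unadjusted p-values were under 0.05 for no member without the block and for 1 with it, where 0.484% of all genes were that low without the block (0.565% that high) and 0.792% with it. The 95% intervals reached from −0.56 to 0.53 at their widest, for Cdc6, so changes of that size were not shown to be absent for every gene. Removal of trimebutine replicate 3 or of vehicle replicate 2 turned the median to 0.04 and 0.08, each with 10 of 45 genes below 0, and without trimebutine replicate 2 there were 43 below 0. Such runs leave the 2 groups with different isolates. With a replicate number left out of all groups and the block, 36 genes were below 0 without replicate 1, 27 without replicate 2 and 30 without replicate 3.

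The isolates differed among themselves in these genes. Replicate 2 had the highest value of its group in 39 of 45 genes with trimebutine, in 38 with alprostadil and in 39 with vehicle, where it was highest for 31%, 32.2% and 31.3% of all genes. In 35 genes this held in all 3 of those groups, a count whose share over all genes was not computed. With trimebutine and trametinib it was highest in 12 of 45, where it was highest for 29.4% of all genes, and in 10 of the 35. The mean over the 45 genes was 7.75, 7.74 and 7.73 in the arrays of the combination, 8.73, 8.90 and 8.58 with trimebutine, 8.49, 8.73 and 8.54 with alprostadil and 8.73, 8.95 and 8.61 with vehicle. These means spanned 0.014 with trimebutine and trametinib, 0.32 with trimebutine, 0.239 with alprostadil and 0.344 with vehicle. In such means, opposite deviations of single genes cancel. Gene by gene, the median range over the 3 arrays of a group was 0.194 with trimebutine and trametinib. It was 0.321 with trimebutine, 0.303 with alprostadil and 0.358 with vehicle, so single genes still varied between isolates in the combination.

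**Figure D4:**
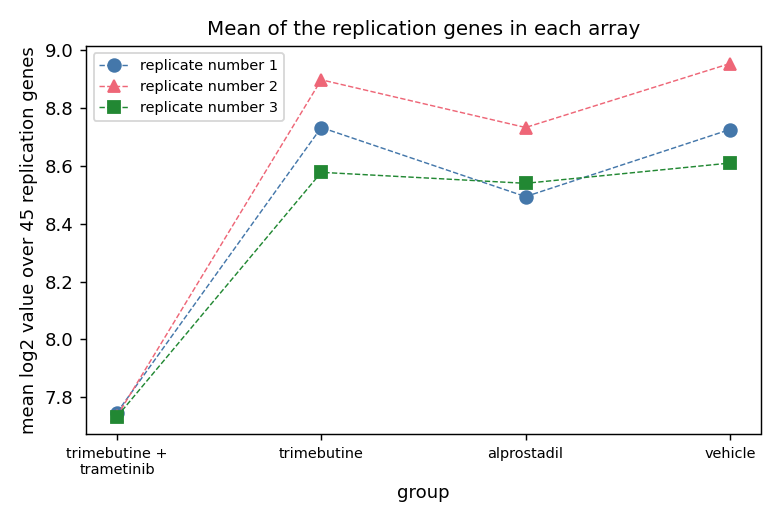
Mean log2 value over the 45 replication genes (vertical axis) in each of the 12 arrays, by group (horizontal axis); symbols and dashed lines join arrays of the same replicate number. The arrays of the combination lie at 7.73 to 7.75 and those of the other groups from 8.49 to 8.95, with replicate 2 highest in each of these 3.

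A model chosen after these values were seen tested the pattern across all genes. Replicate numbers differed in 15 of the 45 genes (limma, adjusted p under 0.05), where 14.4% of all genes did, with Chaf1b (adjusted p = 0.0011), Pole2 (adjusted p = 0.00152) and Mcm5 (adjusted p = 0.00327) first. The difference between numbers changed with the combination in 1 of 45, Cdc6, where 0.103% of all genes passed, and 18 of 45 had an unadjusted p under 0.05, where 13.7% of all genes did. Adipocyte sums moved with the replicate number too, at 10.14, 11.09 and 11.87 in vehicle replicates 1, 2 and 3, as did cycling-cell sums, at 12.28, 12.59 and 12.21, and their part in the pattern was not tested.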

How the data were processed

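Total RNA from 12 SKP cultures was biotin-labelled for Affymetrix Rat Gene 2.0 ST microarrays (per the labels' protocols). Log2 expression was deposited, which the authors computed using RMA in oligo according to the submitters' processing notes. Software versions and settings were not given in the sources used here. RMA brings all arrays to 1 distribution, so a change in total RNA per cell cannot be seen. Of 36685 features, 18511 had a single gene symbol in the platform annotation, 575 had several and 17599 had none. Symbols were updated through Entrez identifiers to GRCr8 names (18394 matched). Genes with a mean under the 25th percentile, 5.83, were left out.

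One limma model (version 3.58.1, R 4.3.3) with a mean for each group covered the 12 arrays, and its tests were two-sided, with Benjamini-Hochberg adjustment over 13636 genes, for 5 comparisons. The replicate number as a block was an alternative. Each of the 12 arrays was most like arrays sharing its number, and pairs of different numbers had r from −0.71 to 0.10. The number of arrays limits the precision, and the fit without the block leaves differences between replicate numbers in the spread. On simulated data of 13636 genes for the combination against trimebutine, the fit without the block recovered 2% of 50 genes lowered by 0.25, 58% of those lowered by 0.5, 98% of those lowered by 1 and 100% of those lowered by 2, with 1 false among 130 calls. With the block it recovered 26% of those lowered by 0.25 and 82% of those lowered by 0.5, with 5 false among 159 calls. Only 50 genes at each of these sizes were changed, whereas 33.4% of all genes were called in the real comparison without the block. The adjusted threshold is easier to pass where more genes change, so these shares do not give the recovery in that comparison. For alprostadil against vehicle, 6% of 50 genes lowered by 0.25 were recovered without the block. With it, 30% were, with 9 false among 154 calls. Fits without an array leave 2 in its group, whose spread is pooled with the other groups.

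Members, lists and comparisons were chosen with earlier results of these data known. Values per array are given for the 2 members of each step with the largest and the 1 with the smallest difference when trametinib was added. In the other comparisons the extremes and up to 6 members with the smallest p are named, and in the other lists up to 4 called genes and every gene called the opposite way. Cdt1, Pcna and further members, and Pole3, Pole4 and Pold4 of the other lists, complete their complexes. Alternatives were the block, the filter on low signal, the feature rule, centring, the groups in the fit, the prior and left-out arrays.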

Additional observations from a re-analysis of the deposited data

Results flagged for a closer look

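Cdc6 was singled out because the difference between its replicate numbers changed with the combination (limma interaction, adjusted p = 0.0405, chosen after the data were seen). Replicate 2 lay 0.34 below the mean of replicates 1 and 3 with trimebutine and trametinib (−0.34), and above it by 0.53 with trimebutine, 0.52 with alprostadil and 0.52 with vehicle. The combination value of replicate 2, 5.83, was at the low-signal limit. Cdc6 did not pass when no genes were left out for low signal, where 0 of the 45 did.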

How the results depend on the processing

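For trametinib added to trimebutine, the count of replication genes that fell ranged from 37 to 43 over the 16 alternatives (42 as reported), with 43 under the replicate block and 37 to 41 when 1 array was left out. Against vehicle it ranged from 38 to 44 (41 as reported), with 44 under the block. The medians stayed between −1.03 and −0.82 in the first and between −1.02 and −0.82 in the second. For alprostadil and trimebutine against vehicle the count was 0 in all alternatives, the block included. For alprostadil against trimebutine it was 1 with the replicate block (Mcm5) and ranged from 0 to 1 when a replicate number was left out of all groups with the block, where the 1 was Pold2 without replicate 3. The interaction with the replicate number called 1 gene, and 0 with no filter on low signal, where more genes are tested. The block changed no other count of replication genes called at an adjusted p under 0.05 by over 1.5 times. At an unadjusted p under 0.05 it took the lower genes to 19, against 3 without it, for alprostadil against vehicle, and to 19, against 1, for alprostadil against trimebutine.

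Signs turned for values near 0. Orc2 in the combination against trimebutine (0.004) ranged from −0.079 to 0.049 without 1 array and from −0.106 to 0.071 without a replicate number, with −0.023 without combination replicate 3, −0.079 without trimebutine replicate 3 and −0.106 without replicate 3 in all groups. Orc4 for alprostadil against vehicle ranged from −0.034 to 0.15 without 1 array, with −0.011 without alprostadil replicate 1 and −0.034 without vehicle replicate 2. For trimebutine against vehicle, Orc2 ranged from −0.096 to 0.031, its value of 0.031 without trimebutine replicate 3, and Pold1 −0.015 without replicate 1 in all groups. The cause was not tested. Signal over background limits Cdc6, Orc1 and Pole2, whose combination means of 6.05, 5.96 and 6.18 lay near the limit of 5.83.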
